A study of Mus musculus with 4 samples.

Results

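Macrophages of the uninjured mouse heart that carried transcripts of Trem2, Gpnmb, Spp1 or Gdf15 were examined by single-cell RNA sequencing, and were compared with infarct cells chosen in the same way. A cell of the baseline library was taken as a member if it had at least 1 UMI (unique molecular identifier, 1 captured transcript) of 2 or more of these 4 genes. It also had to have 0 UMIs of Lyve1 and Cd163, markers of resident macrophages, and fewer than 3 of the 6 cell cycle genes Mki67, Top2a, Birc5, Ube2c, Pclaf and Stmn1. In the baseline library, 376 of 10238 cells with 500 to 40000 UMIs and over 200 genes met this rule, a share of 3.67% (exact 95% binomial interval 3.32 to 4.06%). The whole series held 41533 such cells. The members were thus selected on their measured UMIs of these genes, and every comparison of members with other cells below is a description without a test.

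All cells came from CSF1R-EGFP+ mice of 12 to 16 weeks, in which the Csf1r promoter drives a green fluorescent protein, and were sorted as EGFP+ and Ly6G-. The reporter marks monocytes and other Csf1r-transcribing cells as well as macrophages. The baseline library pooled 3 hearts of mice without surgery, and each of the 3 infarct libraries came from 1 heart, 7 days after ligation of the left coronary artery. With 1 baseline library, the spread between uninjured hearts could not be measured, and an exact permutation test of 1 library against 3 cannot go below 0.25 (one-sided), so no p-value is given.

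TREM2 is a receptor of myeloid cells that binds lipids and debris of dying cells and signals through the adaptor encoded by Tyrobp. Gpnmb encodes a transmembrane glycoprotein of lysosomal compartments, Spp1 encodes the matrix protein osteopontin, and Gdf15 encodes a stress-induced cytokine of the TGF-beta superfamily. Macrophages that express Trem2, Gpnmb, Spp1 and Fabp5 together are known from lipid-rich and injured tissues, where they take up lipids and degrade them in lysosomes.

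The libraries held 71093963 UMIs at baseline and 88157753 to 97944428 in the infarcts, with a median of 6398.5 UMIs per baseline cell and 8469.5 to 8556.5 per infarct cell. Pairs of libraries shared 26 to 34 cell barcodes. Baseline members were deeper than other baseline macrophages, defined as non-members with at least 10 UMIs of C1qa, C1qb and C1qc together: the medians were 10936.5 and 6861 UMIs. A deeper cell has more chances to show a UMI of each marker, and the part of depth in membership was examined by thinning, below. A doublet score marked 43 of the 376 members (11.4%) and 8.20% of all baseline cells.

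The members carried the general macrophage transcripts. Of 13 identity genes such as Adgre1, Csf1r, Cd68 and Mertk, 0 differed past 2-fold in either direction from other baseline macrophages, and 292 of the 376 members (77.7%) had at least 10 complement C1q UMIs. Markers of other cell types were low in both groups. The 6 B-cell genes summed to 42.5 CPM (UMIs of a gene per 1000000 UMIs, without mitochondrial genes) in members and 44.7 in other macrophages, and the 6 cardiomyocyte genes to 21.5 and 67.6. Of the 6 T and NK cell genes, 5 were at 0 in members (Cd3e, Cd3d, Trbc2, Nkg7 and Gzma). The 7 genes of serous cavity macrophages summed to 8.50 CPM in members and 57.6 in others, with Gata6, Prg4 and Alox15 at 0 in members. The 6 granulocyte genes summed to 71.5 and 56.4 CPM, the 9 dendritic genes to 139 and 142, the 6 endothelial genes to 7.32 and 16.0, the 7 fibroblast genes to 6.14 and 10.7, and the 5 erythroid genes to 2.12 and 4.36.

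The 4 markers did not contribute equally to the choice. Trem2 was found in 369 members, Spp1 in 299, Gpnmb in 133 and Gdf15 in 96. The commonest combination was Trem2 with Spp1 alone (172 members), followed by Trem2, Gpnmb and Spp1 (77), Trem2 with Gdf15 (49), Trem2 with Gpnmb (26), all 4 markers (23) and Trem2, Spp1 and Gdf15 (21), and 8 members had other combinations. Many of these detections were single molecules: 100 members had exactly 1 Spp1 UMI and 25 had exactly 1 Gpnmb UMI. At the other end, 99 members had 10 or more Spp1 UMIs, up to 615 in 1 cell, and 74 had 10 or more Gpnmb UMIs, up to 133.

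The share of each transcript that lay inside the members differed by gene. Members held 85.9% of all Gpnmb UMIs of the baseline library (3116 of 3629) and 78.2% of all Spp1 UMIs, but 19.6% of Trem2 and 25.8% of Gdf15 UMIs. Trem2 was thus spread widely, with at least 1 UMI in 45.3% of all baseline cells, whereas Gpnmb was found in 2.07%. A Trem2 UMI was found in 62.1% of members and other macrophages together. It was also found in 25.2% of B cells and 20% of endothelial cells, which should lack it. Without those that had 10 or more C1q UMIs, it was found in 7% of 100 B cells and 6.41% of 156 endothelial cells. Their median depths were 3521 and 2857 UMIs, against 4881 and 3745 UMIs with those cells included. Of the Gdf15 UMIs, 48.9% lay in cells with 2 or more markers that the rule left out for a UMI of Lyve1 or Cd163. Such cells numbered 381 of the 779 with 2 or more markers, and they held 12.6% of Gpnmb and 16.8% of Spp1 UMIs. Another 22 cells were left out as cycling.

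Around the threshold, the 254 members with exactly 2 markers averaged 352 CPM of Fabp5 and 775 CPM of Ctsd. The 1472 cells just outside, with 1 marker and otherwise meeting the rule, averaged 94.4 and 227 CPM. No C1q limit was set for them, so they were not limited to macrophages, and the part of other cell types in their levels was not tested. The 99 members with 3 markers averaged 3086 CPM of Fabp5 and 5005 of Ctsd, and the 23 with all 4 averaged 4327 and 4793. Plac8, 1 of the monocyte genes listed, ran in the other order, from 1220 CPM just outside to 403, 50.04 and 45.2 CPM with 2, 3 and 4 markers. Other genes of that list split. F10 and Thbs1 were higher in all members than just outside (109 against 53.7 CPM and 328 against 199 CPM). Chil3 was lower (223 against 354 CPM), as were Ly6c2 and Ccr2, given below.

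The share of cells that met the rule was 3.67% at baseline and 50.8%, 61.3% and 55.1% in the 3 infarct libraries (mean 55.7% ± 5.30, SD, n = 3). All 3 infarct shares were far above the baseline share, but many cells that should lack these transcripts also met the rule there. B cells, recognised by at least 2 of Cd79a, Cd79b, Ms4a1 and Ly6d, met it in 36 of 78, 29 of 54 and 54 of 126 cases in the infarcts (46.2%, 53.7% and 42.9%). At baseline 3 of 139 B cells met it, 2.16% (0.447 to 6.18%), and endothelial cells met it in 1 of 195 cases. Infarct endothelial cells met it in 9 of 36, 17 of 33 and 12 of 32 cases. The median depth of the B cells was 4881 UMIs at baseline and 9794 to 10414 in the infarcts. Some of these B cells also carried 10 or more C1q UMIs, and a B cell captured with a macrophage would show both. Without them, 0 of 100 B cells met the rule at baseline, and 3 of 30, 4 of 15 and 7 of 49 in the infarcts (10%, 26.7% and 14.3%), at median depths of 3521 UMIs and 3703 to 8042 UMIs. The part of free transcripts and of doublets in these shares was not tested.

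Thinning every cell to 4000 UMIs, which left out 2544 baseline cells and 1291 to 1877 per infarct library, gave a baseline share of 3.76% (3.34 to 4.21%), against 3.80% (0.790 to 10.7%) of 79 B cells. The infarct shares were then 44.7%, 54.0% and 50.3%, against 42.9%, 40.0% and 38.4% of B cells. At 2000 UMIs per cell the baseline share was 2.28%, against 0.763% of 131 B cells, and the infarct shares were 32.6% to 39.5%, against 22.6% to 27.4%. With 1 UMI as evidence, the share of all cells at 4000 UMIs lay within the interval of the B cells at baseline and in infarct libraries 1 and 2, and above it in infarct library 3 (28.8 to 48.7%). At 2000 UMIs infarct library 2 also lay above the interval of its B cells (14.03 to 38.9%), as did library 3 (15.3 to 31.3%). The B cells thinned here include those with 10 or more C1q UMIs. For B cells without them, the full-depth intervals in the infarcts were 2.11 to 26.5%, 7.79 to 55.1% and 5.94 to 27.2%. The full-depth shares of all cells lay above these intervals, but all cells also had higher median depths than those B cells. The share under the rule is not read as a number of expressing cells or as a gain of such cells after infarction. Intervals cover counting error only.

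**Figure D1:**
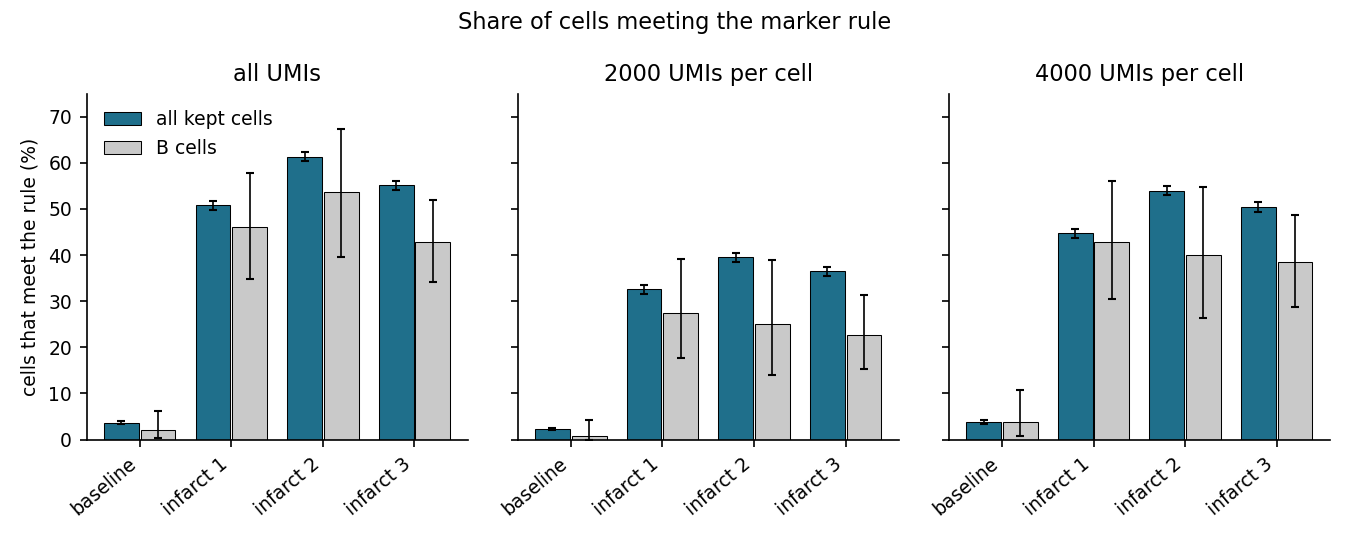
Share of cells (%) that met the marker rule in each library, for all kept cells (blue) and for B cells (grey), at full depth and with every cell thinned to 2000 or 4000 UMIs; bars show shares and lines exact 95% binomial intervals. In each infarct library B cells, including those with C1q UMIs, met the rule at 22.6% or more at every depth. At baseline the share of all kept cells was 3.67% at full depth.

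Gpnmb was found in a smaller group within the members. With every cell at 4000 UMIs, Gpnmb was found in 154 of 7694 baseline cells (2.00%) and in 0 of 79 B cells, which allows a share of up to 3.80%. At 2000 UMIs it was found in 129 of 8991 cells, and in 0 of 131 B cells, which allows up to 2.29%. Over all baseline cells at 2000 UMIs, Spp1 was found in 61.2% of cells with Gpnmb and 2.71% of those without, and Trem2 in 64.3% and 23.7%. Within members, Spp1 was found in 78.9% of cells with Gpnmb and 79.8% of those without at full depth. With these members thinned to 2000 UMIs it was found in 62.9% and 36.9%. Spp1 and Trem2 are genes of the rule, so these values are a description and no support for a distinct group. In the infarcts, 6% to 23.2% of B cells carried a Gpnmb UMI at 4000 UMIs, so the same split is less clean there.

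The 133 Gpnmb+ members (35.4% of members) and the 243 Gpnmb- members differed widely in genes outside the rule. Fabp5, a fatty acid binding protein, averaged 3294 CPM in Gpnmb+ and 256 CPM in Gpnmb- members, and the lysosomal protease Ctsd 4670 and 848 CPM. The median Gpnmb+ member had 959 CPM of Fabp5, with an interquartile range of 113 to 4080, whereas the median Gpnmb- member had none. Lgals3, which encodes the lectin galectin-3, averaged 7306 and 2197 CPM, and the vesicle protein gene Syngr1 292 and 24.2 CPM. Of 5776 genes compared, 89 were higher past 2-fold in Gpnmb+ members (1.54%) and 147 were lower (2.55%). The median difference over all of them was -0.0073 on the log2 scale.

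The difference between Gpnmb+ and Gpnmb- members was also present when other genes were read at equal depth. Gpnmb+ and Gpnmb- members were assigned on all UMIs, so depth can still enter through the split. Their medians were 13851 and 9378 UMIs, and with each cell thinned to 4000 UMIs Fabp5 was found in 72.0% of 132 Gpnmb+ and 16.8% of 238 Gpnmb- members. Syngr1 was found in 43.9% and 2.94%, and Atp6v0d2, a subunit of the lysosomal proton pump, in 12.9% and 1.26%. In 79 B cells at the same depth Fabp5 was found in 6.33% and Syngr1 and Atp6v0d2 in 0%. Among other macrophages, Fabp5 was found in 9.37% of 779 Ccr2+ cells, 4.94% of 648 Ccr2- cells and 5.53% of 3907 cells with Lyve1 or Cd163.

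**Figure D2:**
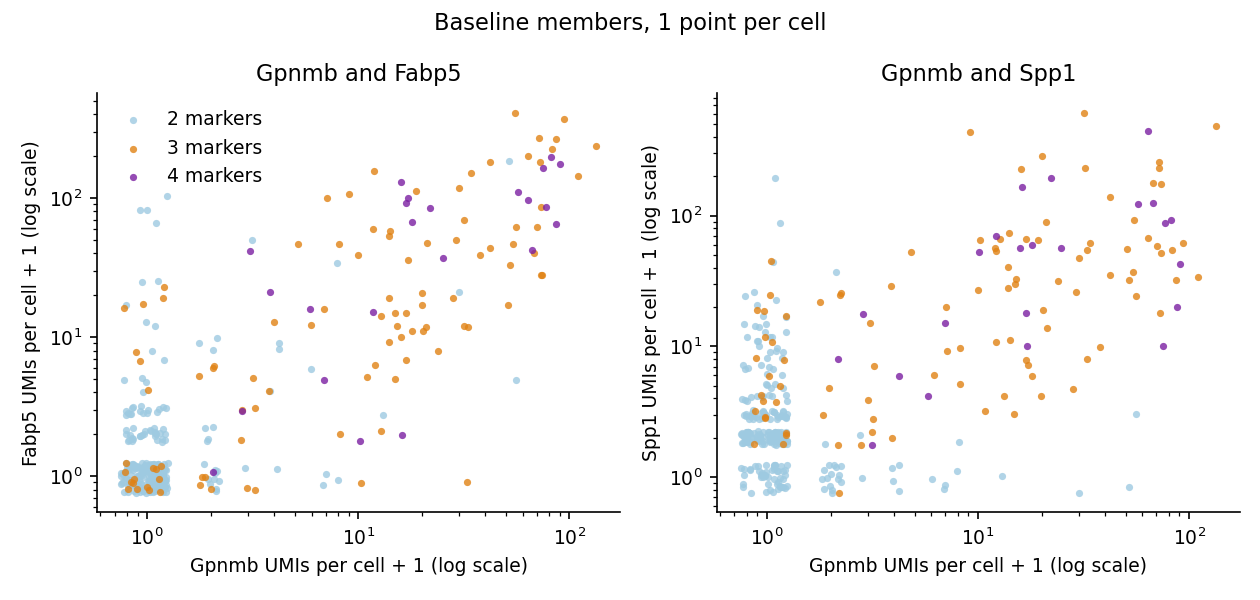
UMIs of Fabp5 (left) and Spp1 (right) against UMIs of Gpnmb in each of the 376 baseline members, each plus 1 on log axes with a small random offset so that points do not hide one another; colours give the number of markers found. The 243 members without Gpnmb stand in the column at the left, where most have no Fabp5, and members with 10 or more Gpnmb UMIs have up to 411 Fabp5 UMIs.

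Genes lower in Gpnmb+ than in Gpnmb- members included genes of antigen presentation and inflammation. The MHC class II gene H2-Aa averaged 2268 CPM against 5476, and Cd74, the invariant chain, 6345 against 14803. Of 7 MHC class II genes, 5 were lower past 2-fold and 0 higher, with a median of -1.20. C1qa averaged 1225 against 3160 CPM and the interleukin gene Il1b 213 against 1024. Of 10 inflammatory genes, 6 were lower (Il1b, Tnf, Cxcl1, Cxcl2, Ccl4 and Nfkbia) and 1, the monocyte attractant Ccl2, was higher. Of 9 immediate-early and heat-shock genes, which respond to tissue dissociation, 5 were lower, among them Egr1 at 147 against 643 CPM and Hspa1a at 84.0 against 330. The part of dissociation in the other differences was not tested.

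Against the 6159 other macrophages of the baseline library, 126 of 5971 genes were higher past 2-fold in members (2.11%) and 169 were lower (2.83%), with a median difference of -0.054 over all genes. Folds are ratios of CPM plus 10, summed over cells. The highest was Fabp5, at 1638 CPM (Poisson interval 1600 to 1677) against 52.8 CPM (50.7 to 55.0), a log2 difference of 4.71. Next came Syngr1 (146 against 4.27 CPM, 3.45), Lgals3 (4521 against 438 CPM, 3.34), the interleukin-7 receptor gene Il7r (140 against 10.1 CPM, 2.90) and Ctsd (2587 against 361 CPM, 2.81). The mannose-6-phosphate receptor Igf2r, which carries enzymes to lysosomes, stood at 66.1 against 3.05 CPM (2.54), and Lhfpl2 at 79.5 against 7.03 CPM (2.39).

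Coagulation and secreted-protein genes were also among the 12 highest. The coagulation factor genes F10 and F7 stood at 109 and 53.6 CPM, against 9.99 and 2.80 CPM in other macrophages, and the matrix glycoprotein Thbs1 at 328 against 48.5 CPM. The chitinase-like Chil3 stood at 223 against 35.3 CPM and the kinase gene Sgk1 at 332 against 56.5 CPM. Chil3 was not higher than in the cells just outside the rule, with 1 marker and no C1q limit, which held 354 CPM of it. These transcripts were not evenly carried: a UMI of F7 was found in 16.5% of members, of F10 in 25%, of Fabp5 in 46.5% and of Lgals3 in 85.4%. F7 averaged 106 CPM in Gpnmb+ and 9.96 in Gpnmb- members, whereas Chil3 averaged 239.6 and 209 CPM and Thbs1 378 and 286.

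Of the 11 genes reported at the low end, 5 were on the list of resident macrophage genes, and the rule removes resident macrophages through Lyve1 and Cd163. The folate receptor gene Folr2 stood at 27.8 against 508 CPM (log2 -3.77), the phosphatidylserine receptor Timd4 at 1.65 against 79.1 CPM (-2.94), and the complement receptor Vsig4 at 2.12 against 69.0 CPM (-2.70). Ltc4s, Cbr2, Ccl24, Chp2, Ednrb, C4b, Gas6 and Ccl8 followed, at log2 differences of -3.09 to -2.56. Of the other macrophages, 4416 of 6159 carried Lyve1 or Cd163. Against those without either gene, a comparison added after the values had been seen, 92 of 5897 genes were higher (1.56%) and 82 lower (1.39%), with a median of -0.014. All 12 of the highest genes stayed past 2-fold there, and of the 11 low genes Vsig4 and C4b did, with Folr2 at 27.8 against 46.7 CPM (-0.58).

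**Figure D3:**
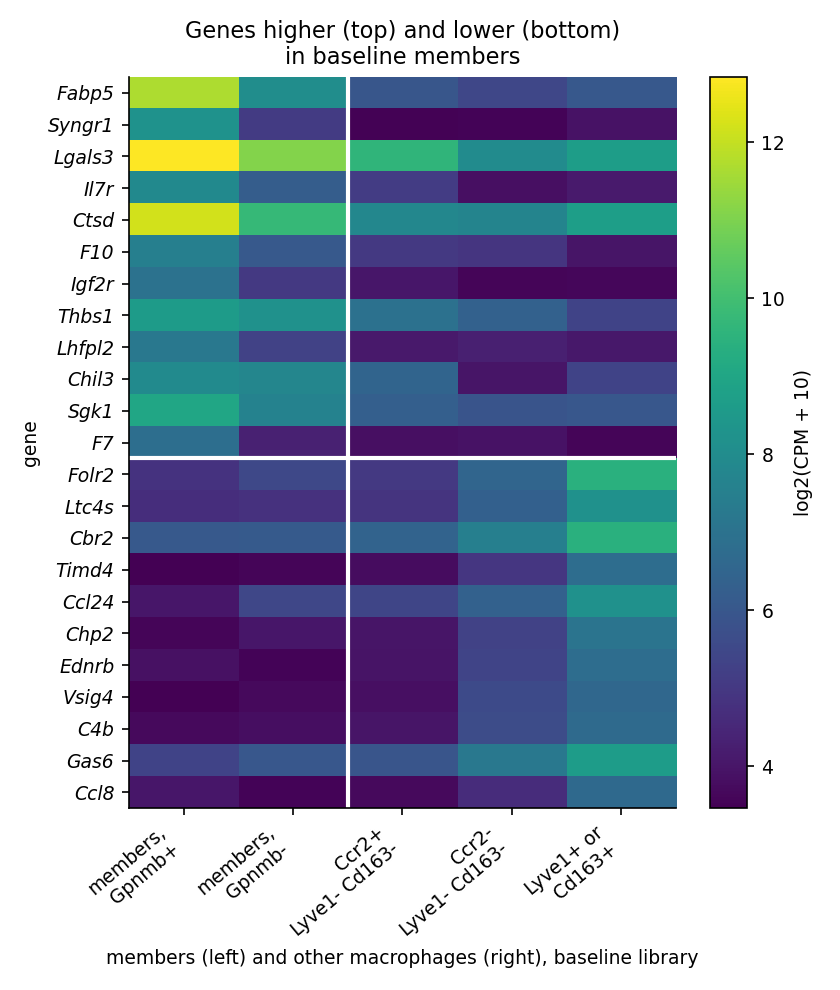
Level, as log2(CPM + 10), of 23 genes, 12 high and 11 low by ratio in baseline members over other baseline macrophages; columns are Gpnmb+ and Gpnmb- members and 3 kinds of other macrophages from the same library. The upper genes reach their highest level in Gpnmb+ members and the lower genes in macrophages with Lyve1 or Cd163.

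Genes of the lipid handling list, which also holds Lgals3, Lgals1, Cd9, Cd63 and Tyrobp, were higher as a group. Of 17 measured, 9 were past 2-fold higher in members than in other macrophages and 0 lower, with a median log2 difference of 1.01. Besides Fabp5 and Lgals3 these were the lipoprotein lipase Lpl (1099 against 292 CPM), the tetraspanin Cd9 (601 against 162), the lipid droplet coat gene Plin2 (582 against 191), Lgals1, Fabp4, the cholesterol exporter Abcg1 and Soat1, which esterifies cholesterol. Against Lyve1- Cd163- macrophages the count was again 9 of 17, with Cd63 and Lipa in place of Fabp4 and Abcg1 and a median of 1.001. Apoe, the apolipoprotein of the same list, stood at 10857 CPM in members and 14245 CPM in other macrophages, and Abca1 at 116 and 221 CPM. Fabp4 averaged 177 CPM in Gpnmb+ and 38.1 in Gpnmb- members, and 101 CPM in all members. It stood at 129 CPM in the cells with 1 marker just outside the rule, which were not limited to macrophages.

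Lysosomal genes differed less. Of 19 measured, 3 were higher past 2-fold (Ctsd, Ctss and Psap) and 0 lower, with a median of 0.40, and Ctsb stood at 3862 against 2094 CPM (0.88). Within members the lysosomal genes followed Gpnmb: 6 of 19 were higher past 2-fold in Gpnmb+ members (Ctsb, Ctsd, Ctsl, Ctss, Psap and Creg1) and 0 lower. The 5 measured genes of MiT-TFE and Bhlhe transcription factors included 2 that were higher, Bhlhe40 (65.4 against 13.3 CPM) and Bhlhe41 (36.8 against 12.95 CPM). No measured MiT-TFE gene passed 2-fold in either direction. Of 3 osteoclast genes, the phosphatase Acp5 (66.5 against 12.1 CPM) and Atp6v0d2 (47.2 against 5.52 CPM) were higher. Ctsk, the osteoclast protease, averaged 54.5 CPM in Gpnmb+ and 1.30 CPM in Gpnmb- members.

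MiT-TFE factors are known to act on lysosomal genes through the short E-box CACGTG, so promoter sequence was set beside these levels for the gene that divided the members and for 2 lysosomal genes among the highest. The 250 bases before the start are given 5′ to 3′ on the strand of the gene, from RefSeq (GRCm38.p6, the assembly of mm10), with CACGTG and the related CATGTG, searched on both strands, in capitals.
Gpnmb, chr6:49036268-49036517, plus strand: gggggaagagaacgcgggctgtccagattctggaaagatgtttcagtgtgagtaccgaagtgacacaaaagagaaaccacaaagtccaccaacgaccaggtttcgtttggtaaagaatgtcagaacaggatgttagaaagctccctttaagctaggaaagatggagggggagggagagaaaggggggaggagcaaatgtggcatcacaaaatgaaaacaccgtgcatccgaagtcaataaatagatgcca
Ctsd, chr7:142387828-142388077, minus strand: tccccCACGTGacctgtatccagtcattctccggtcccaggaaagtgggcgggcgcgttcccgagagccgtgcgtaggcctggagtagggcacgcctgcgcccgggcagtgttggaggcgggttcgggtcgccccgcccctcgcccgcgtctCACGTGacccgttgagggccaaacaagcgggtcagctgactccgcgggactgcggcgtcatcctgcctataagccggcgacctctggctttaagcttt
Igf2r, chr17:12769707-12769956, minus strand: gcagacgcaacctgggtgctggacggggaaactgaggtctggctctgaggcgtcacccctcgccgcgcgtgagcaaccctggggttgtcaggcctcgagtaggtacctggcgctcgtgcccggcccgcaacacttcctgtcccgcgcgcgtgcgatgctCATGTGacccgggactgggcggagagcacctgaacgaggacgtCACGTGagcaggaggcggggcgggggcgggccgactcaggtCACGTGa

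In this window Ctsd and Igf2r each held CACGTG at 2 places, and Igf2r also held CATGTG. Gpnmb held neither. Over the genes higher in members, 98 of 126 had a promoter in the table, and 13 of these held CACGTG (13.3%). The share was 11.4% over all genes of that comparison with a promoter (543 of 4766) and 6.86% over the whole table, so the higher genes were near their background. CATGTG was held by 14.3% of the higher genes, 8.96% of all compared and 13.8% of the table. Of the genes lower in members, 133 of 169 had a promoter in the table. Among these, 19.5% held CATGTG and 6.77% held CACGTG. These matches are of letters only.

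Iron, glycolytic and matrix genes gave smaller groups. Of 9 iron, heme and NRF2 genes, 4 were higher and 0 lower (median 0.78): the ferritin genes Fth1 (15827 against 6535 CPM) and Ftl1 (13890 against 5857 CPM), the cystine transporter Slc7a11 and Txnrd1. Of 11 glycolytic genes, 5 were higher and 0 lower (median 0.94), among them Aldoa at 463 against 189 CPM and Pgk1 at 167 against 69.8 CPM. Of 13 repair and matrix genes, 5 were higher (Il1rn, Mmp12, Mmp14, Mmp19 and Syngr1) and 2 lower (Timp2 and Fcrls), with a median of 0.74. The macrophage metalloelastase Mmp12 stood at 374 against 89.3 CPM, and Vegfa, an angiogenic growth factor, at 25.01 against 2.11 CPM, too low to enter the comparison.

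Monocyte genes were higher against all other macrophages and less so against those without Lyve1 and Cd163. Of 13, 10 were higher past 2-fold (median 1.32), including Ccr2 at 892 against 441 CPM, Ly6c2 at 91.1 against 27.9 CPM and the fibronectin gene Fn1 at 960 against 237 CPM. Against Lyve1- Cd163- macrophages 3 of 13 were higher, Chil3, F10 and Thbs1 (median 0.78), with Ccr2 at 892 against 844 CPM. The other macrophages had by definition 10 or more C1q UMIs, and 292 of the 376 members had as many. With members held to the same limit, the log2 difference from all other macrophages was 1.26 for Chil3 in place of 2.36, 2.05 for F10 in place of 2.58 and 2.21 for Thbs1 in place of 2.53. The cells just outside the rule, without a C1q limit, held 281 CPM of Ly6c2 and 1035 CPM of Ccr2. Of the 13 resident genes measured, 12 were lower against all others and, of 10 measured, 3 were lower against the Lyve1- Cd163- cells: Mrc1 (424 against 979 CPM), Retnla and Mgl2. The 7 MHC class II genes had a median of -0.39 with 0 past 2-fold against all others, and 4 lower with a median of -1.004 against the Lyve1- Cd163- cells.

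Other lists held few genes past 2-fold. Against all other macrophages, 0 of 10 inflammatory, 0 of 6 interferon and 0 of 6 integrated stress response genes passed in either direction. Of 9 efferocytosis genes, Stab1 and Gas6 were lower, and of 9 immediate-early and heat-shock genes Egr1, Hspa1a and Hspa1b were lower. The 2 measured dendritic genes split, with Itgax higher at 99.6 against 26.3 CPM and Clec10a lower.

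Fewer genes passed 2-fold between infarct cells under the same rule and other macrophages of their own libraries, but the counts are not alike. A gene had to pass in all 3 infarct libraries, against 1 library at baseline. Cells with Lyve1 or Cd163 were 52.2% of all baseline cells, and 2.37% to 6.53% of all infarct cells. They were 4416 of the 6159 other macrophages at baseline. Without them the baseline counts were 92 higher and 82 lower. Of 5640 genes, 3 were higher past 2-fold in all 3 infarct libraries (0.0532%), namely Fabp5, Syngr1 and the protease gene Ctsk, and 15 were lower (0.266%), with a median of -0.042 over all genes. Fabp5 averaged 817 ± 37.1 CPM in infarct members and 281 ± 35.3 CPM in other infarct macrophages (SD, n = 3), a mean log2 difference of 1.51 ± 0.20, against 4.71 at baseline. Ctsd averaged 3264 ± 275 and 1741 ± 98.3 CPM, and Lgals3 2131 ± 27.3 and 1236 ± 5.00 CPM. Of the 12 highest genes at baseline, 9 were also higher in members in every infarct library, and F10, Thbs1 and F7 were not. These smaller differences accompany the B-cell shares given above. How far free transcripts and the unlike comparison cells contribute to them was not tested.

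Infarct and baseline members were then set side by side, which asks what cells with the same markers carried in the 2 settings. Of 5673 genes, 43 were higher past 2-fold in each of the 3 infarct libraries (0.758%) and 34 were lower (0.599%), with a median of -0.11 over all genes. With TMM scaling the median was 0.04 and the counts were 58 and 16, so that 78.4% of the genes past 2-fold were higher rather than 55.8%. Without infarct replicate 1, 66 genes were lower. Since the baseline is a single pooled library, a difference between pools and a difference between uninjured and infarcted hearts cannot be told apart.

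Apoe was among the genes higher in infarct members, at 35573, 45447 and 42678 CPM in the 3 libraries, against 10857 CPM (10758 to 10957) at baseline. All 3 infarct values lay above the baseline value, with a log2 difference of 1.92. Ms4a7, a membrane gene of macrophages, stood at 2222, 3232 and 2943 CPM against 408 CPM (2.75), and Fcrls at 644, 903 and 722 CPM against 122 CPM (2.53). The B-cell and macrophage lectin gene Cd72 averaged 617 ± 82.0 CPM against 130.5 CPM.

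Several of the highest ratios rested on genes nearly at 0 in baseline members and varied between infarcts. The acute phase gene Saa3 stood at 873, 28.3 and 218 CPM in the infarct members, and 4 UMIs of it were counted in all baseline members (0.944 CPM). Saa3 is also on the list of serous cavity macrophage genes, whose 7 members summed to 905, 33.3 and 238 CPM in the infarct members. The chemokine Ccl8 stood at 237, 547 and 189 CPM against 3.78 CPM, and arginase gene Arg1 at 279, 107 and 136 CPM against 10.6 CPM. C4b, Cd38, Sparc, Nxpe5 and Ly6a completed the 12, with infarct means of 39.0 to 94.6 CPM and baseline levels of 2.60 to 19.1 CPM. Sparc is also a fibroblast gene, and the 7 fibroblast markers summed to 56.2 to 149 CPM in infarct members against 6.14 CPM at baseline. The part of fibroblast transcripts in the Sparc value was not tested.

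Lpl and Cd36 were among the genes lower in infarct members. Lpl stood at 251, 193 and 238 CPM against 1099 CPM (1068 to 1131), a log2 difference of -2.23, and the fatty acid translocase Cd36 at 88.3, 55.9 and 72.2 CPM against 481 CPM (-2.58). Both genes were lower in each infarct library than at baseline. The resistin-like Retnla stood at 21.9, 0.609 and 8.52 CPM against 334 CPM (-4.08), and the lectin Mgl2 averaged 22.2 ± 7.79 CPM against 226 CPM. Mmp12 averaged 70.1 ± 8.12 against 374 CPM, Chil3 51.4 ± 17.2 against 223 CPM, Fabp4 28.0 ± 4.37 against 101 CPM and the large scaffold protein gene Ahnak 481 ± 100.5 against 1587 CPM. Lyz1 averaged 17.6 ± 4.75 against 194 CPM, and its reads may be shared with the near-identical Lyz2. Hist1h1e, Nes and Lilra5 completed the 12, at log2 differences of -1.83 to -1.49. Among Gpnmb+ members Nes was at -0.84 and Lilra5 at 0.16, so that Lilra5 turned direction there.

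**Figure D4:**
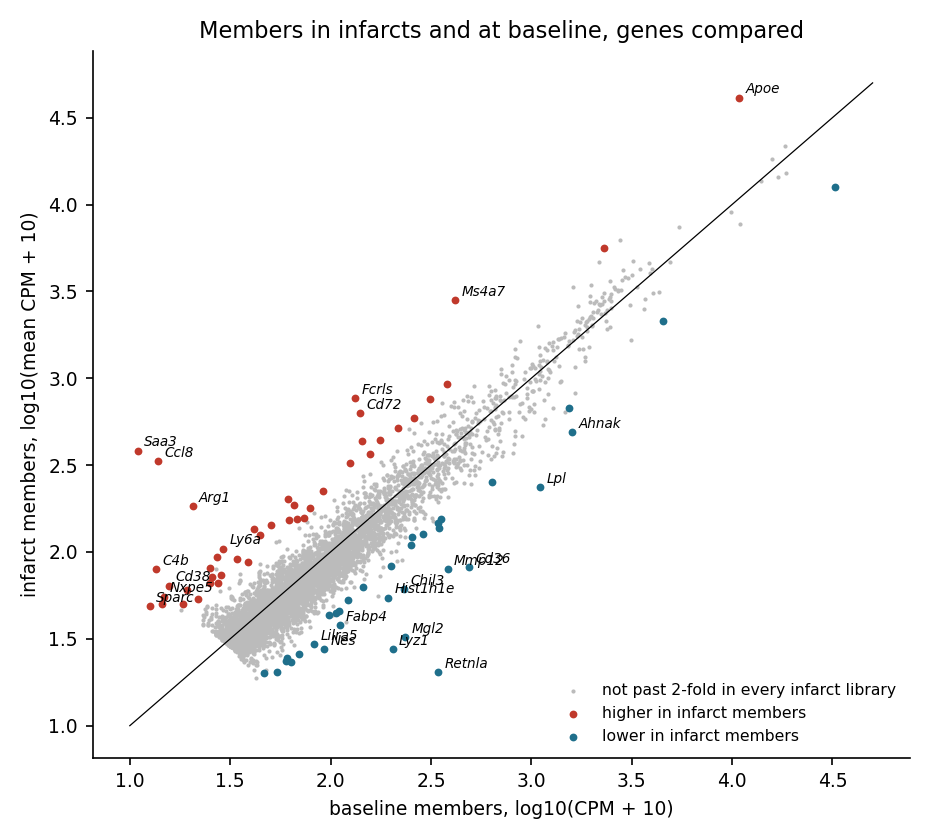
Level of each compared gene in infarct members (mean CPM of 3 libraries) against baseline members (1 library), both as log10(CPM + 10); coloured points were past 2-fold in the same direction in all 3 infarct libraries and the 24 named genes are labelled. Apoe and Ms4a7 lie well above the line of equal levels, and Lpl, Cd36 and Retnla below it.

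The same libraries were compared in the other macrophages, with which the members share their free transcripts. There Ms4a7 had a log2 difference of 2.37 between infarct and baseline, Cd72 of 1.73, Apoe of 0.99, Fcrls of 0.66 and C4b of 0.66. Saa3 and Arg1 had larger log2 differences there than in members, 6.17 against 5.13 and 5.21 against 3.15, and other infarct macrophages averaged 1325 ± 1174 CPM of Saa3 and 443 ± 294 CPM of Arg1 (SD, n = 3). Of the 12 genes named as higher in infarct members, 7 were also past 2-fold in the other macrophages of all 3 infarct libraries, and of the 12 named as lower, 7 were. Among the lower genes, Retnla had -3.85, Mgl2 -3.51, Cd36 -2.19, Mmp12 -0.93, Lpl -0.92 and Chil3 0.18. Fabp5 differed in direction between the 2 kinds of cells: it was 817 ± 37.1 CPM in infarct members against 1638 CPM at baseline, and 281 ± 35.3 CPM in other infarct macrophages against 52.8 CPM at baseline. Syngr1 stood at 156 ± 8.48 CPM in infarct members and 146 CPM at baseline.

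Restricting both sides to Gpnmb+ members, a choice made after the values had been seen, left 133 baseline cells and 1907, 2195 and 2331 infarct cells. Of 5603 genes, 78 were higher (1.39%) and 65 lower (1.16%) past 2-fold in each infarct library, with a median of -0.12. Gpnmb itself, which chose these cells, stood at 1616 CPM at baseline and 650, 497 and 608 CPM in the infarcts. The infarct group can include cells with a stray Gpnmb UMI, as the B cells with a Gpnmb UMI above show.

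Among Gpnmb+ members, Fabp5 stood at 3294 CPM at baseline and at 1741, 1636 and 1420 CPM in the infarcts, and Lgals3 at 7306 CPM and at 3213, 3006 and 3226 CPM. Lpl stood at 1482 CPM and at 352, 254 and 308 CPM. For these 3 genes each infarct library lay below baseline. Apoe stood at 13231 CPM and at 40052, 49467 and 45302 CPM, and C1qa at 1225 CPM and at 4850, 6017 and 5191 CPM, with each infarct library above baseline. The levels of Ctsd (4670 CPM and 4951 ± 631 CPM), Spp1 (3543 CPM and 3096 ± 690 CPM) and Syngr1 (292 CPM and 258 ± 30.2 CPM) at baseline lay within the range of the 3 infarct libraries. Trem2, also a gene of the rule, stood at 849 CPM and 1378 ± 41.6 CPM.

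**Figure D5:**
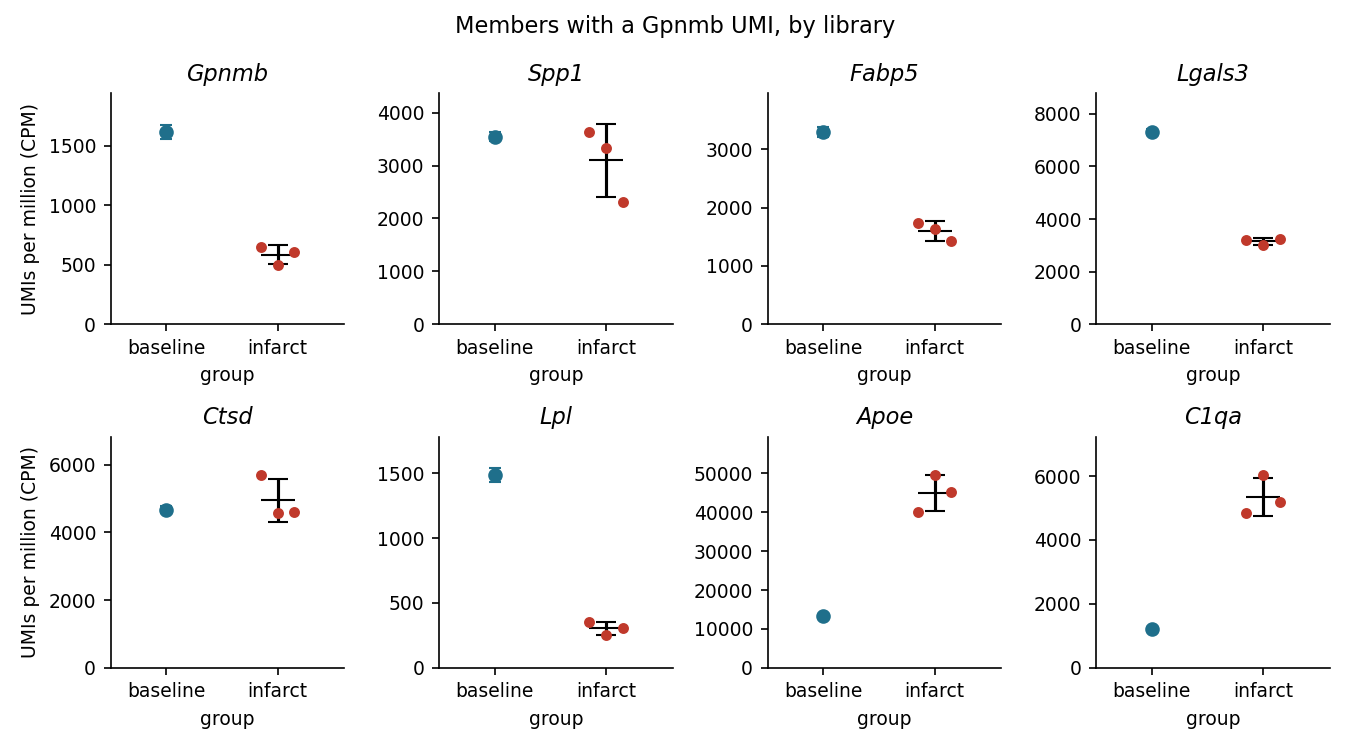
Level (CPM) of 8 genes in Gpnmb+ members of the baseline library (blue, with its 95% Poisson interval) and of the 3 infarct libraries (red points, 1 per library, with the mean and SD in black). Fabp5, Lgals3 and Lpl are lower in all 3 infarcts, Apoe and C1qa are higher, and Ctsd and Spp1 overlap.

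By group, genes of the lipid handling list split between the settings. Of 17 measured in all members, 2 were higher in infarcts (Apoe and the cholesterol exporter Abca1, at 315 ± 17.9 against 116 CPM) and 4 lower (Lpl, Fabp4, Lgals3 and Cd36), with a median of -0.53 against -0.11 over all genes. In Gpnmb+ members the same split was 2 and 4 of 18, with a median of -0.61. Of 19 lysosomal genes, 0 were past 2-fold in either direction in all members (median 0.14), with Ctsl at 712 ± 66.6 against 349 CPM. Of 8 interferon response genes, 7 were higher and 0 lower (median 1.498), including Isg15 at 134 ± 42.8 against 40.4 CPM and Irf7 at 125 ± 31.7 against 31.6 CPM. In the other macrophages Isg15 and Irf7 had log2 differences of 1.16 and 1.67.

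Of 17 repair and matrix genes, 5 were higher in infarct members (Arg1, Sparc, Ecm1, Rapsn and Fcrls) and Mmp12 was lower. Of 13 identity genes Adgre1, which encodes F4/80, was higher at 583 ± 21.7 against 251 CPM. Of 13 monocyte genes Chil3 was lower, and of 9 resident genes F13a1, Retnla and Mgl2 were lower. Of 2 dendritic genes Itgax was lower, and 0 of 7 MHC class II, 0 of 10 inflammatory, 0 of 9 iron, 0 of 12 glycolytic, 0 of 5 stress response, 0 of 8 efferocytosis and 0 of 9 immediate-early genes passed 2-fold in all 3 libraries.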

How the data were processed

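The deposited values were raw UMI counts per gene and cell that the authors made with Cell Ranger (version 3.1.0 in the file headers, 3.0.1 in the submitters' processing notes) and the mm10 reference, from 10x 3′ libraries, with 1 matrix per library. Everything after these counts was computed here with Python 3.11.15. The study's limits of 500 and 40000 UMIs and of more than 200 genes per cell were applied. They leave more cells than the study analysed. Mitochondrial genes were left out of CPM. Counts were summed over the cells of a group and divided by their total. A gene was compared if its mean over both sides was at least 20 CPM and was past 2-fold if log2 of (CPM + 10) differed by at least 1, in each of the 3 libraries for infarcts. The 12 genes of the rule were left out of counts. The text names 12 genes from each end of the ratios among those past 2-fold (1 of them is not reported here), without C1q, ribosomal, mitochondrial, sex-linked and haemoglobin genes, and examples from 25 gene lists. Members and lists were chosen with earlier results of these data known. Doublets were scored with Scrublet in scanpy 1.11.5. Its threshold marked 2.43% of baseline and at most 0.0297% of infarct cells, so the highest-scoring 8 per 1000 for every 1000 cells were marked, kept, and removed in an alternative. TMM factors came from edgeR 4.0.16. Other alternatives changed the depth, the marker rule, the added CPM and the minimum level. The calculation was tested on simulated data. No p-value is given because there was 1 baseline library, and cells are not replicates.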

Additional observations from a re-analysis of the deposited data

Results flagged for a closer look

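Gas6, the ligand of the efferocytosis receptors, and the chemokine Ccl8 were lower in members than in other macrophages at baseline and higher in all 3 infarct libraries. For Gas6 the log2 difference was -2.60 at baseline (43.4 against 313 CPM) and 0.28 on average in the infarcts, from 0.21 to 0.35. For Ccl8 it was -2.56 at baseline (3.78 against 71.1 CPM) and 0.32 in the infarcts, from 0.15 to 0.42. The difference between baseline and infarcts was not tested, since there was 1 baseline library. Against baseline macrophages without Lyve1 and Cd163 the values were -0.84 and -0.39.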

How the results depend on the processing

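No paired analysis was possible, because the baseline library pooled 3 hearts without surgery and each infarct library came from a different heart. No comparison had a test. The baseline share of 3.67% was 2.28% at 2000 UMIs per cell, 4.06% without cells over 10% mitochondrial UMIs, 1.19% with 3 or more markers, 7.10% without the exclusion by Lyve1 and Cd163, and 2.85% counting only members with 10 or more C1q UMIs. With Trem2, Spp1 or Gdf15 not counted it was 1.26%, 1.93% and 3.17%. Members that needed Gpnmb to meet the rule carried it with only 1 other marker: 26 with Trem2, 5 with Spp1 and 1 with Gdf15. The infarct mean of 55.7% was 36.2% and 49.7% at 2000 and 4000 UMIs, 23.5% with 3 or more markers, and 24.1% and 28.5% with Trem2 or Spp1 not counted, and 52.9% to 58.2% with each infarct left out. With 3 or more markers, 226 genes were higher and 420 lower than in other baseline macrophages, and 87 higher and 85 lower in infarct than in baseline members. With only Gpnmb+ members these counts were 227, 380, 78 and 65, and against Lyve1- Cd163- macrophages 82 genes were lower. Counts lower in infarct members, 34 as reported, were 68 with 1 CPM added and 16 with TMM scaling. Leaving out each infarct gave 45 to 50 higher and 38 to 66 lower genes, the 66 without replicate 1. The cause of these moves was not tested. Among the named genes, 554 alternative values stayed within 0.5 of the reported log2 difference, 92 moved by 0.5 or more without changing sign, and 2 changed sign: Lilra5, at 0.12 with 3 or more markers and 0.16 in Gpnmb+ members. Alternatives restricted to Gpnmb+ members and to Lyve1- Cd163- macrophages were added after seeing the data. Depth limits what 1 UMI of a marker can show.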

Other observations

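Genes of alveolar macrophages, which share Fabp5, Lpl and Chil3 with the members, were looked at after the values had been seen. Baseline members held 3 UMIs of Car4, 10 of Siglecf and 6 of Marco in all, at most 2.36 CPM for each. Slc40a1, the iron exporter, averaged 61.2 CPM in Gpnmb+ and 9.53 CPM in Gpnmb- members, but a UMI of it was found in 2.66% of members. Choosing members on a random 0.5 of each cell's UMIs gave 300 cells. Their remaining UMIs held 810 CPM of Gpnmb and 2073 CPM of Spp1, against 10.1 and 41.6 CPM in other macrophages. Trem2 stood at 666 against 223 CPM and Gdf15 at 137 against 33.1 CPM. Fabp5 stood at 1986 CPM in the chosen cells, without a value for other macrophages. Both parts of the UMIs come from the same cells, so this is a description and no independent support.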
